A study of Mus musculus with 6 samples.

Results

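A run of neighboring genes on mouse chromosome 8, from Ddx39 to Heatr3, was examined in tumor-associated macrophages (TAMs). Its members are the protein-coding genes whose start lies between the start of Ddx39 and the start of Heatr3, chr8:83715177-88137855 in GRCm38 (mm10), and whose TPM reached 1 in 3 or more of the 6 libraries. TPM is a transcript level corrected for length and for the library total. The interval of 4.42 Mb holds 78 annotated protein-coding genes, of which 59 were members, out of 12590 protein-coding genes that passed the same filter in the whole table. The segment was selected on these same TPM values, because its genes stood higher in C5aR-/- TAM 2 and C5aR-/- TAM 3 than the WT mean. The values of the members are therefore a description, and no test was made on them.

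The study asked how C5aR, the receptor for the complement fragment C5a, shapes the transcriptome of TAMs. RNA was sequenced from 3 libraries of WT TAMs and 3 libraries of C5aR-/- TAMs. The mice were C57BL/6 females (WT) or C5aR knockouts on that background, aged 6 to 8 weeks when purchased, and the knockout was not limited to macrophages. All received ID8 cells, a mouse epithelial ovarian cancer line, by intraperitoneal injection, and 2 months later TAMs were sorted from the tumors as live CD45+CD11b+Ly6G-F4/80+ cells. The labels do not say whether each library came from its own mouse, so the spread between libraries may be partly technical. The study's legends give more mice per group for this experiment than there are libraries. C5ar1, the targeted gene, measured 86.5, 37.3 and 16.2 TPM in WT TAM 1, 2 and 3 and 0.38, 0.11 and 0.05 TPM in C5aR-/- TAM 1, 2 and 3. All other values below are given in the same order of libraries.

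Neighboring genes on a mammalian chromosome mostly serve unrelated functions. The genes of this interval encode endoplasmic reticulum and cytosolic chaperones, enzymes of peroxide and nucleic acid metabolism, immediate early transcription factors, factors of DNA replication, and proteins of endosomes and lysosomes. Macrophages depend on several of them, such as the lysosomal DNase II for digesting DNA of engulfed cells and the retromer for recycling receptors from endosomes. RNA was measured and DNA was not.

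The upstream sequences of 6 members are shown so that starts of raised and other members can be set side by side. Each is the 250 bases just before the start in RefSeq (GRCm38.p6), printed 5′ to 3′ on the gene's own strand, and none overlaps an annotated exon. The first 4 belong to members far higher than WT in C5aR-/- TAM 2 and C5aR-/- TAM 3, and the last 2 to members that were not. Capitals mark a GC box (GGGCGG) or a CCAAT box (CCAAT), read on either strand, and Dhps holds neither. The windows are chr8:84871861-84872110 (plus strand) for Syce2, chr8:85071507-85071756 (plus) for Dhps, chr8:84822824-84823073 (minus) for Dand5, chr8:85555362-85555611 (minus) for Dnaja2, chr8:88118509-88118758 (plus) for Cnep1r1 and chr8:86623793-86624042 (plus) for Lonp2.
Syce2: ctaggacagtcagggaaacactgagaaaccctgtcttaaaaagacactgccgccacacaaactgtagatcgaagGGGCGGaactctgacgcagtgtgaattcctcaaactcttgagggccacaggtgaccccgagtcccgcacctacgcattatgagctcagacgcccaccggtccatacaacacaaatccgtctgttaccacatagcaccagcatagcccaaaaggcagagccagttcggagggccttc
Dhps: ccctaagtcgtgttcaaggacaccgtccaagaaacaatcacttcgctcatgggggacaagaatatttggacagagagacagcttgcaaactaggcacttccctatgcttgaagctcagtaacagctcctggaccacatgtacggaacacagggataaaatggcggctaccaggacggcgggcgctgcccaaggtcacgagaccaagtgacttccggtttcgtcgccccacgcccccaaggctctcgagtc
Dand5: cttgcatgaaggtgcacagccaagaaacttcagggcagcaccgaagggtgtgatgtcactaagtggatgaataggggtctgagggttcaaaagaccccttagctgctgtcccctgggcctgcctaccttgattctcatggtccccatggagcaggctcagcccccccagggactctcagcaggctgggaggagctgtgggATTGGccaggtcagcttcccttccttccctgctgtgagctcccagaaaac
Dnaja2: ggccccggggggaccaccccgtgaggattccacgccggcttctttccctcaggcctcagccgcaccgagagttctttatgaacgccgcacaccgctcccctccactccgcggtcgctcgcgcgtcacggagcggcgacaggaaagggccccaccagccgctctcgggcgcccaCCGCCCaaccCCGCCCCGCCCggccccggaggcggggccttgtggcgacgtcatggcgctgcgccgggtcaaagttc
Cnep1r1: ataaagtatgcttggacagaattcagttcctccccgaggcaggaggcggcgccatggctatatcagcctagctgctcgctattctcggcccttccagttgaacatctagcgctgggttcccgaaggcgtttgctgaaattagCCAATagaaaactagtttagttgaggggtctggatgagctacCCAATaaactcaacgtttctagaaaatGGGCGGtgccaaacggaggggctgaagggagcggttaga
Lonp2: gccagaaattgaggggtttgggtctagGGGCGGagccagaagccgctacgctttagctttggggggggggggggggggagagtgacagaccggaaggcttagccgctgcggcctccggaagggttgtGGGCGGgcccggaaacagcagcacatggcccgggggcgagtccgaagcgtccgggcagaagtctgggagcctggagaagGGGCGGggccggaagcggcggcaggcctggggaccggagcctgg

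RefSeq upstream sequences were at hand for 47 of the 59 members and for 9896 of the protein-coding genes that passed the filter. The GC box was present in 59.6% of the members' windows and in 59.3% of all windows. Among the 29 members with a window that were at least 1 above the WT mean on the log2 scale in both C5aR-/- TAM 2 and C5aR-/- TAM 3, it was present in 44.8%. The CCAAT box was present in 48.3% of these 29 windows and in 36.6% of all windows. TATAAA was found in 6.90% of the 29 against 6.47% of all, the AP-1 site TGANTCA in 6.90% against 4.21%, and the E-box CACGTG in 10.3% against 8.20%. ACGTG, which lies within the E-box, was found in 17.2% against 21.5%. The letters TTTNGCGC were in none of the 29 windows, 0 in number, and in 1.98% of all windows. Both strands were read for each motif. The median GC content of the 29 windows was 57.6%, where all windows had 59.6%. A match is a description of the letters and not a bound site.

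Members were followed in each library as the deviation, log2(TPM + 1) of the library minus the mean of log2(TPM + 1) over the 3 WT libraries. In C5aR-/- TAM 2, 37 of 59 members had a deviation of at least 1, and 3.96% of the 12590 protein-coding genes did. The count was 43 of 59 members in C5aR-/- TAM 3, against 5.54% of all. The same 37 members were at least 1 above the WT mean in both libraries, where 2.91% of all protein-coding genes were, and such members are called raised in what follows. In C5aR-/- TAM 1, 3 of 59 members passed this mark, beside 4.48% of all genes. The C5aR-/- libraries were not alike along the segment, and the plot of deviations along chromosome 8 shows the split between its libraries.

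**Figure D1:**
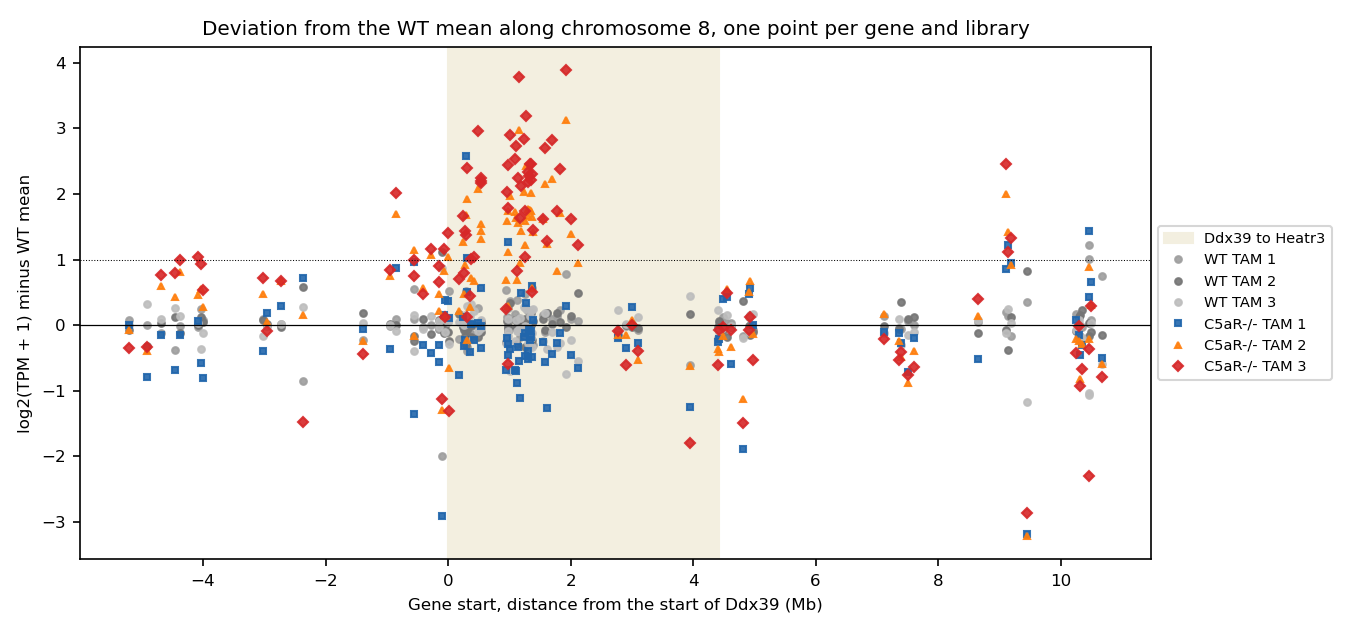
Deviation from the WT mean (y axis, log2 scale) of 58 members and of 49 genes on either side, against the distance of the gene start from the start of Ddx39 (x axis, Mb), with 1 point per gene and library. Inside the shaded segment, C5aR-/- TAM 2 (triangles) and C5aR-/- TAM 3 (diamonds) stand above the other libraries over the first part, and C5aR-/- TAM 1 (squares) mostly stays at or below 0.

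Over all 59 members the median deviation was -0.26, 1.42 and 1.74 in C5aR-/- TAM 1, 2 and 3, and the medians over all 12590 protein-coding genes were -0.04, -0.04 and -0.06. The members together held 0.569%, 0.436% and 0.448% of the TPM in the WT libraries. In C5aR-/- TAM 1, 2 and 3 this share was 0.378%, 1.12% and 1.39%. Spread between WT libraries was small beside this. When each WT library was set against the mean of the other WT libraries, the median over members was 0.05, -0.02 and -0.07, and single members ranged from -1.11 to 1.16.

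The segment was divided into 3 stretches, whose bounds were set with earlier results of these data known, so their difference in level is a description. From Ddx39 to Zfp791, 30 of 43 members were at least 1 above the WT mean in both C5aR-/- TAM 2 and C5aR-/- TAM 3, with medians of 1.54 and 2.12. From Vps35 to Phkb, 7 of 9 members were, with medians of 1.61 and 1.74. From Abcc12 to Heatr3, the count was 0 of 7, and the medians were -0.37 and -0.39. The medians of the 3 stretches in C5aR-/- TAM 1 were -0.22, -0.44 and -0.26.

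Within the first stretch the level differed on the 2 sides of the gap between Cc2d1a and Zswim4, a gap of 0.0627 Mb. This boundary was chosen after the values were seen. Of the 12 members from Ddx39 to Cc2d1a, 4 were at least 1 above the WT mean in both libraries, and the medians were 0.70 and 1.03. Of the 40 members from Zswim4 to Phkb, 33 were, and the medians were 1.62 and 2.23. These 40 genes span 1.85 Mb. They held 0.514%, 0.387% and 0.396% of the TPM in WT TAMs, and 0.328%, 1.06% and 1.32% in C5aR-/- TAM 1, 2 and 3. The longest unbroken run of members at least 1 above the WT mean in both libraries had 12 genes, from Dnase2a to Wdr83os.

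At the far edge, Phkb, the last member before the drop in level, stood at 46.6, 63.5 and 30.3 TPM in WT TAMs and at 28.2, 87.1 and 105 TPM in C5aR-/- TAMs. The next member, Abcc12, an ABC transporter gene, starts 0.421 Mb beyond the end of Phkb and had a TPM between 1.05 and 1.76 in all 6 libraries. At the near edge the levels were intermediate. The 10 protein-coding genes before Ddx39 had medians of -0.30, 0.34 and 0.70 in C5aR-/- TAM 1, 2 and 3, and the 10 genes after Heatr3 had -0.05, -0.15 and -0.14. Ptger1, the nearest gene before Ddx39, had deviations of 0.13 and 0.13 in C5aR-/- TAM 2 and 3. Gipc1, farther out on the near side, had 0.82 and 1.16, and Tent4b, just outside on the far side, had -0.16 and -0.02. Beyond the 10 genes before Ddx39 the values were mixed. Rnf150, 0.85 Mb before Ddx39, had 1.70 and 2.01 in C5aR-/- TAM 2 and 3. Smad1, 4.38 Mb before it, had 0.81 and 0.99, and Lsm6, 4.91 Mb before it, had -0.39 and -0.34. Higher values were therefore not confined to the segment. Over the other 608 protein-coding genes of chromosome 8 that passed the filter, 17 were at least 1 above the WT mean in both libraries, and the medians were -0.09 and -0.17.

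**Figure D2:**
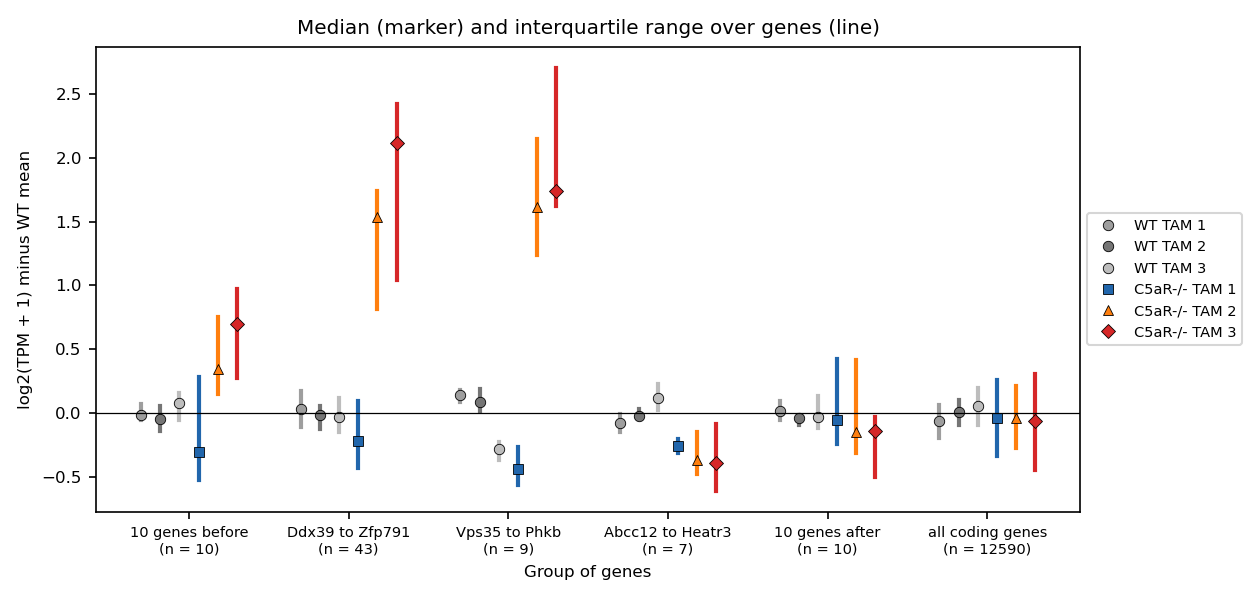
Median deviation (marker) and interquartile range over genes (line) on the log2 scale in each library, for the 10 genes before the segment, its 3 stretches, the 10 genes after it and all 12590 protein-coding genes. C5aR-/- TAM 2 and C5aR-/- TAM 3 have medians between 1.54 and 2.12 in the first and second stretch and below 0 in the third.

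C5aR-/- TAM 3 stood above C5aR-/- TAM 2 in 49 of 59 members, where 47.0% of all protein-coding genes were in that order. Of the 40 genes from Zswim4 to Phkb, 36 were in that order. A deviation of at least 1 in C5aR-/- TAM 3 but not in C5aR-/- TAM 2 was found for 6 members, Samd1, Dcaf15, Cc2d1a, Gcdh, Gpt2 and Phkb. Genes of low and high level were both raised. From Zswim4 to Phkb, TPM divided by the WT mean had medians of 3.67 (C5aR-/- TAM 2) and 6.30 (C5aR-/- TAM 3) among the 14 genes of lowest WT level (2.51 to 21.3 TPM). The medians were 2.97 and 4.72 in the next 13 genes, and 3.06 and 4.49 among the 13 genes of highest WT level (67.4 to 915 TPM). Members on both strands were raised, with 17 of 28 on the plus strand and 20 of 31 on the minus strand.

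**Figure D3:**
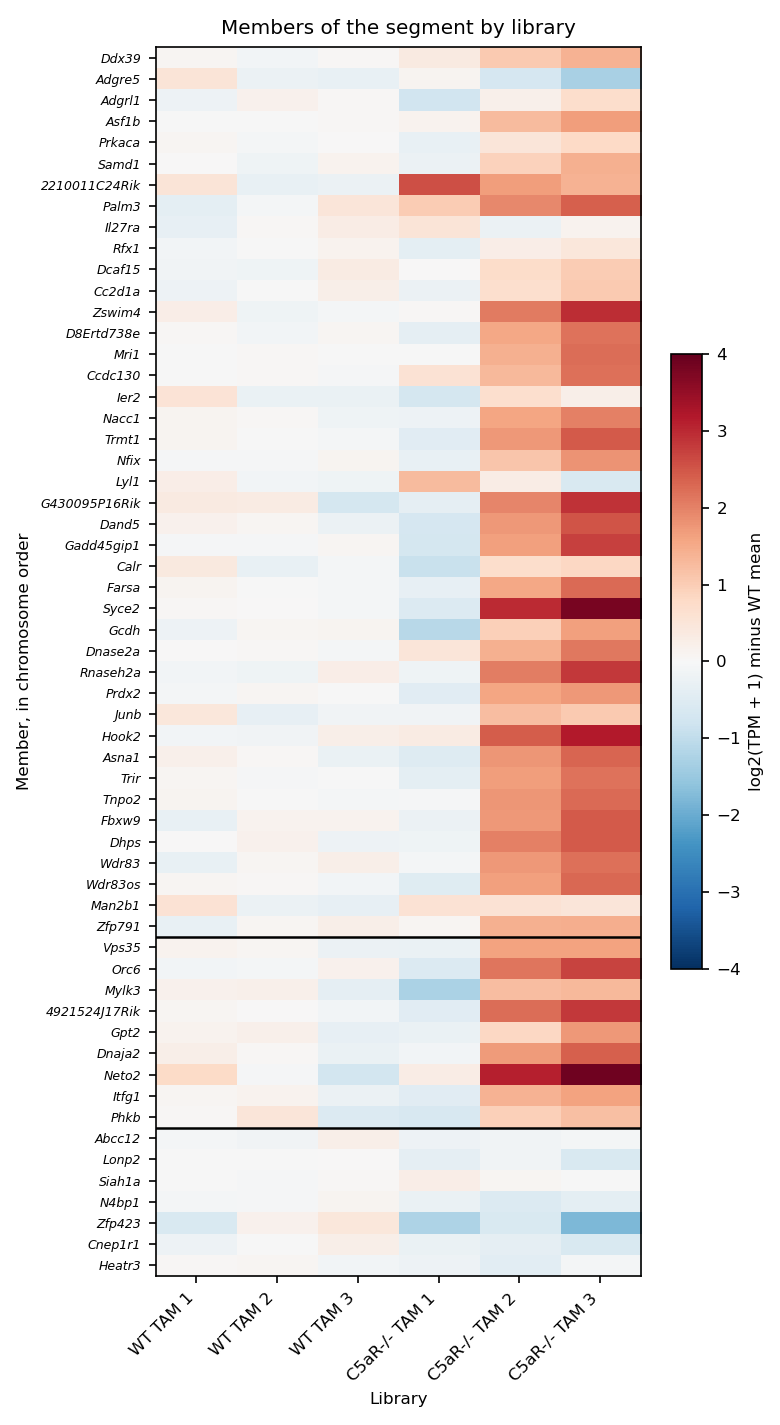
Deviation from the WT mean on the log2 scale for 58 of the 59 members in chromosome order (rows) in the 6 libraries (columns), with black lines between the 3 stretches. The 2 right-hand columns, C5aR-/- TAM 2 and C5aR-/- TAM 3, are red from Zswim4 to Phkb except at single genes such as Lyl1, and pale or blue from Abcc12 to Heatr3.

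Of the genes of DNA replication and cell division, 5 of 5 were raised. All of them but Asf1b lie from Zswim4 to Phkb, where 33 of 40 members of any role were raised. Role and place in the segment therefore cannot be told apart, here or in the role groups below. Orc6, a subunit of the origin recognition complex, stood at 44.2, 45.5 and 54.6 TPM in WT TAMs and at 32.1, 216 and 317 TPM in C5aR-/- TAMs. Rnaseh2a, the catalytic subunit of RNase H2, had 65.0, 63.1 and 85.5 in WT and 62.2, 291 and 509 in C5aR-/- TAMs. Both had the lowest value of all 6 libraries in C5aR-/- TAM 1. Asf1b, a histone chaperone, had 13.2, 13.1 and 13.8 in WT TAMs and 14.7, 33.5 and 44.6 in C5aR-/- TAMs. In Asf1b, C5aR-/- TAM 2 and C5aR-/- TAM 3 lay apart from all WT libraries.

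Syce2, a component of the synaptonemal complex that holds chromosome pairs together in meiosis, was among the members farthest from WT. Its TPM was 12.55, 11.99 and 11.43 in WT TAMs, and 7.87, 101 and 178 in C5aR-/- TAM 1, 2 and 3. The last 2 values were 8.46 and 14.9 times the WT mean. Neto2, which encodes an auxiliary subunit of kainate receptors, had 5.98, 2.98 and 1.44 in WT TAMs and 3.99, 34.5 and 59.3 in C5aR-/- TAMs, the latter 2 at 9.96 and 17.1 times the WT mean. Of the 59 members, Neto2 and Syce2 had the highest mean deviations over C5aR-/- TAM 2 and 3, 3.50 and 3.38. Hook2, an adaptor between cargo and microtubule motors, followed with 2.80, then the uncharacterized 4921524J17Rik with 2.53 and Zswim4 with 2.52. Zswim4, a zinc finger SWIM domain gene, stood at 21.3, 15.4 and 16.5 TPM in WT TAMs and at 18.0, 77.1 and 143 TPM in C5aR-/- TAMs.

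Among the chaperone genes, Dnaja2 and Asna1 were raised and Calr was not. Dnaja2, a cytosolic Hsp40 co-chaperone, stood at 110, 97.6 and 77.5 TPM in WT TAMs and at 86.5, 311 and 495 TPM in C5aR-/- TAMs. Asna1, also called Get3, is the ATPase that delivers tail-anchored proteins to the endoplasmic reticulum, and it had 98.5, 88.4 and 70.3 in WT and 59.3, 294 and 432 in C5aR-/- TAMs. Calr encodes calreticulin, the calcium-binding chaperone that also acts as an uptake signal on dying cells. It had 1169, 734 and 843 in WT TAMs and 488, 1453 and 1592 in C5aR-/- TAMs, so that C5aR-/- TAM 1 was the lowest and C5aR-/- TAM 3 the highest of the 6 libraries. Its deviations were -0.88, 0.69 and 0.83.

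Prdx2, a cytosolic peroxiredoxin that reduces hydrogen peroxide, stood at 321, 361 and 338 TPM in WT TAMs and at 245, 1020 and 1137 TPM in C5aR-/- TAMs. The WT mean was 340 ± 20.3 (SD, n = 3). The C5aR-/- libraries had 0.72, 3.0 and 3.3 times that mean.

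The transcription factors of the segment were mixed, with 3 of 7 raised. Junb, an AP-1 subunit induced early after stimulation, had 1172, 674 and 770 in WT TAMs and 776, 1983 and 1742 in C5aR-/- TAMs. Nfix, a nuclear factor I gene, had 52.3, 52.0 and 58.0 in WT TAMs and 44.0, 118 and 189 in C5aR-/- TAMs. Nacc1, a BTB domain transcriptional regulator, had deviations of -0.20, 1.59 and 2.03. In all 3 genes C5aR-/- TAM 1 was not above the highest WT library, and C5aR-/- TAM 2 and 3 were.

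The remaining 4 were not raised in this way. Ier2, an immediate early gene, stood at 576, 331 and 330 TPM in WT TAMs and at 247, 641 and 470 TPM in C5aR-/- TAMs, and the groups overlapped. Lyl1, a basic helix-loop-helix factor of blood cell development, had 12.8, 9.80 and 9.32 in WT and 26.7, 13.1 and 6.64 in C5aR-/- TAMs, so its order among the C5aR-/- libraries was the opposite of its neighbors'. Rfx1 had deviations of 0.27 and 0.44 in C5aR-/- TAM 2 and 3. Zfp423, a zinc finger factor of the third stretch, had 8.49, 15.4 and 18.7 in WT TAMs and 5.14, 8.48 and 3.18 in C5aR-/- TAMs.

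All 4 genes of the list of translation and tRNA genes were raised, of which Mri1 is an enzyme of methionine salvage. All 4 lie from Zswim4 to Phkb, where 33 of 40 members were raised. Trmt1, a tRNA methyltransferase, stood at 72.3, 66.8 and 63.2 TPM in WT TAMs and at 48.8, 227 and 371 TPM in C5aR-/- TAMs. Farsa, the alpha subunit of phenylalanyl-tRNA synthetase, had 43.3, 39.8 and 37.9 in WT and 31.7, 120 and 195 in C5aR-/- TAMs. Dhps, the first enzyme of hypusine formation on eIF5A, had 20.7, 23.5 and 17.9 in WT and 18.0, 86.1 and 117 in C5aR-/- TAMs. In none of these 3 did C5aR-/- TAM 2 or C5aR-/- TAM 3 overlap WT. Mri1 had deviations of -0.01, 1.43 and 2.24.

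In the lysosome and endosome list, Dnase2a and Vps35 were raised and Man2b1 was not. Dnase2a, the lysosomal DNase, stood at 38.7, 39.8 and 36.1 TPM in WT TAMs and at 54.0, 105 and 169 TPM in C5aR-/- TAMs, and the groups did not overlap. Vps35, the core subunit of the retromer, had 111, 106 and 84.9 in WT and 83.2, 309 and 309 in C5aR-/- TAMs. Man2b1, lysosomal alpha-mannosidase, had 144, 82.7 and 77.02 in WT and 147, 145 and 138 in C5aR-/- TAMs. Its 3 C5aR-/- values lay close together, and the lowest was below WT TAM 1.

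Of the mitochondrial and peroxisomal genes, 1 of 4 was raised. Gadd45gip1, a protein of the mitochondrial ribosome, stood at 16.9, 16.9 and 18.5 TPM in WT TAMs and at 10.4, 56.0 and 121 TPM in C5aR-/- TAMs. Gcdh, glutaryl-CoA dehydrogenase, had deviations of -1.10, 0.94 and 1.63, and Gpt2, the mitochondrial alanine aminotransferase, of -0.27, 0.83 and 1.74. Lonp2, the peroxisomal Lon protease, lies in the third stretch, and its deviations were -0.35, -0.15 and -0.61.

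RNA-handling genes were raised in 3 of 3 cases, of which Tnpo2 and Wdr83 lie from Zswim4 to Phkb, where 33 of 40 members were. Ddx39, an RNA helicase of mRNA export and the first member, stood at 47.0, 41.5 and 46.3 TPM in WT TAMs and at 58.3, 93.6 and 120 TPM in C5aR-/- TAMs. Tnpo2, an importin that brings RNA-binding proteins to the nucleus, had deviations of -0.05, 1.76 and 2.28, and Wdr83 of -0.09, 1.74 and 2.21. Ddx39 was also above all WT libraries in C5aR-/- TAM 1, which the other 2 were not.

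Genes of signaling and of ubiquitin transfer were mostly not raised. Prkaca, the catalytic subunit alpha of protein kinase A, stood at 45.4, 41.2 and 43.6 TPM in WT TAMs and at 34.7, 60.6 and 76.0 TPM in C5aR-/- TAMs. Il27ra, the IL-27 receptor subunit, had 6.26, 8.50 and 10.2 in WT and 12, 6.88 and 9.04 in C5aR-/- TAMs. Adgre5 encodes CD97, an adhesion receptor of leukocytes. It had 204, 120 and 116 in WT TAMs and 152, 89.3 and 56.5 in C5aR-/- TAMs, and it was the one member of the first stretch below all WT libraries in both C5aR-/- TAM 2 and C5aR-/- TAM 3. Fbxw9, an F-box gene, had deviations of -0.22, 1.75 and 2.46, Dcaf15, a receptor of a CUL4 ubiquitin ligase, of 0.02, 0.72 and 1.01, and Siah1a, a RING ubiquitin ligase of the third stretch, of 0.28, 0.08 and -0.0014. N4bp1, also of the third stretch, had -0.27, -0.53 and -0.39. Prkaca, Il27ra, Adgre5 and Dcaf15 lie from Ddx39 to Cc2d1a, where fewer members were raised. Of these signaling and ubiquitin genes, only Fbxw9 lies from Zswim4 to Phkb, and it was raised. Role and place in the segment therefore cannot be told apart here.

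Of the 21 members outside these lists, 15 were raised, with medians of -0.23, 1.54 and 2.16. The most abundant was D8Ertd738e, at 341, 310 and 351 TPM in WT TAMs and 261, 969 and 1497 TPM in C5aR-/- TAMs. Both 2210011C24Rik and Palm3, which lie side by side before Zswim4, were at least 1 above the WT mean in all C5aR-/- libraries. 2210011C24Rik stood at 2.58, 1.02 and 1.12 TPM in WT TAMs and at 13.9, 6.92 and 5.46 TPM in C5aR-/- TAMs. These 2 genes and Lyl1 were the 3 members that passed the mark in C5aR-/- TAM 1. No member, 0 of 59, was at least 1 below the WT mean in both C5aR-/- TAM 2 and C5aR-/- TAM 3, beside 2.64% of all protein-coding genes. In C5aR-/- TAM 1, 3 members were at least 1 below the WT mean, Mylk3, Zfp423 and Gcdh, beside 4.78% of all protein-coding genes.

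C5aR-/- TAM 1 differed from the other C5aR-/- libraries. It was below all WT libraries in 34 of 59 members, where 36.3% of all protein-coding genes were, and above all of them in 11, where 30.0% were. Over the other 608 protein-coding genes of chromosome 8, its shares were 48.2% below and 24.7% above, and the median deviation was -0.14. C5aR-/- TAM 2 and C5aR-/- TAM 3 together were above all WT libraries in 47 of 59 members, beside 19.3% of all genes, and below all of them in 5, beside 24.5%. With all 3 C5aR-/- libraries taken as the group, 7 of 59 members were above WT without overlap, beside 9.17% of all genes. These were Ddx39, Asf1b, 2210011C24Rik, Palm3, Ccdc130, Dnase2a and Hook2. The 4 members below WT without overlap were Lonp2, N4bp1, Zfp423 and Cnep1r1, all of the third stretch. The share below WT without overlap was 13.0% of all genes and 21.4% of the other 608 genes of chromosome 8. The median group difference of the members, 0.99, rests on 2 of the 3 C5aR-/- libraries, and it was 0.59 without C5aR-/- TAM 3 and 1.53 without C5aR-/- TAM 1.

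Several members overlap another protein-coding gene or share a start region with it. There were 24 members that overlap one, of which 18 were raised, and 19 of the 35 members that overlap none were. The libraries were made by a dUTP method that keeps the strand, but whether the authors' estimates used it is not given in the sources used here, so reads of overlapping neighbors may be split between them. Starts facing away from each other within 1000 bases were found for Rnaseh2a and Prdx2, Wdr83 and Wdr83os, Vps35 and Orc6, and Itfg1 and Phkb. In 3 of these 4 pairs both genes were raised, and in the fourth Phkb missed the mark in C5aR-/- TAM 2 with 0.94. Adgre5 overlaps the end of Ddx39 on the opposite strand, and Il27ra that of Palm3, and in both pairs the 2 genes had deviations of opposite sign or unlike size in C5aR-/- TAM 3. Prkaca and Calr have pseudogene copies annotated under their own names, with which reads may be shared, so their values are less certain. Pseudogene copies of members under other names were not searched for.

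Products that act with a member but are encoded outside the segment give a comparison that the choice of members did not use. A list of 61 such genes (other subunits of the same complex, or close relatives) was written with earlier results of these data known. Of these, 14 belong to 2 genes that are not members and were left out. Of the 47 partners of members, 44 passed the filter, 2 did not and 1 was not found by its symbol, and the 44 belong to 19 members. C5aR-/- and WT TAMs were compared for these genes with limma on log2(TPM + 1), adjusted over all 14776 genes tested. This took all C5aR-/- libraries together, although the shift of the members was in C5aR-/- TAM 2 and C5aR-/- TAM 3. The threshold of adjusted p below 0.05 and fold change 2 was passed by 0 partners and by 0% of all genes. At an unadjusted p under 0.05, 1 partner was higher and 5 were lower in C5aR-/- TAMs, and over all genes 2133 had such a p. With a fold change of 2 as well, 0 partners were higher and 1 was lower, beside 2.13% and 2.84% of all genes. The median log2 difference of the partners was -0.06, with 21 higher and 23 lower. By library, 0 of 44 partners were at least 1 above the WT mean in both C5aR-/- TAM 2 and C5aR-/- TAM 3, and their median deviations were -0.0073, -0.0049 and -0.18.

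Subunits of the same complex are given first. Vps26a stood at 46.3, 43.2 and 40.2 TPM in WT TAMs and at 48.9, 38.6 and 34.5 TPM in C5aR-/- TAMs, where Vps35, of the same retromer, was at 309 in both C5aR-/- TAM 2 and C5aR-/- TAM 3. Vps26b had deviations of -0.14 and -0.37 in these libraries. Vps29, the remaining retromer partner, stood at 107, 109 and 121 TPM in WT TAMs and at 100.1, 131 and 141 TPM in C5aR-/- TAMs, so that C5aR-/- TAM 2 and 3 were above all WT libraries. In limma the 3 retromer partners differed by -0.10, -0.10 and 0.13 (adjusted p = 0.821, 0.848 and 0.748). Farsb, the beta subunit that joins Farsa, had 39.4, 41.2 and 36.2 in WT and 37.5, 30.9 and 34.1 in C5aR-/- TAMs. Rnaseh2b, of the same enzyme as Rnaseh2a, had 13.0, 11.5 and 15.9 in WT TAMs and 15.7, 17.2 and 29.7 in C5aR-/- TAMs. In limma this gave 0.55 on the log2 scale (standard error 0.27 and adjusted p = 0.403), and C5aR-/- TAM 3 was the highest library. Rnaseh2c, the other RNase H2 partner, differed by -0.31 (adjusted p = 0.532). Orc1, which binds origins with Orc6, had 1.89, 2.57 and 1.87 in WT and 1.89, 2.68 and 6.58 in C5aR-/- TAMs, which in limma gave 0.48 on the log2 scale with a standard error of 0.38 (adjusted p = 0.610). For Orc1 and Rnaseh2b, C5aR-/- TAM 3 alone stood well apart from WT.

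The chaperone partners that stood farthest from WT were lower in C5aR-/- TAMs. Dnaja1, the close relative of Dnaja2, stood at 358, 466 and 581 TPM in WT TAMs and at 232, 240 and 197 TPM in C5aR-/- TAMs. The groups did not overlap, and limma gave -1.04 on the log2 scale with a standard error of 0.20 (adjusted p = 0.113), the smallest adjusted p among the partners. Of the endoplasmic reticulum chaperones listed with Calr, Hspa5 differed by -0.79 (limma, standard error 0.24 and adjusted p = 0.233), Hsp90b1 by -0.63 (adjusted p = 0.277), Pdia3 by -0.47 (adjusted p = 0.200) and Canx by -0.23 (adjusted p = 0.593). Prdx3, the mitochondrial relative of Prdx2, differed by -0.75 (standard error 0.20 and adjusted p = 0.195). The single partner higher at an unadjusted p under 0.05 was Prkar2a, a regulatory subunit of protein kinase A, which differed by 0.70 (standard error 0.25 and adjusted p = 0.297). Its TPM was highest in C5aR-/- TAM 1, at 33.3, where Prkaca was lowest. None of these passed the adjusted threshold.

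The AP-1 partners of Junb varied widely within both groups. Jun stood at 1360, 1053 and 2232 TPM in WT TAMs and at 2265, 3154 and 544 TPM in C5aR-/- TAMs. Fos had 1727, 620 and 1001 in WT and 1535, 1770 and 666 in C5aR-/- TAMs. Jun, Jund, Fos and Fosb had deviations of 1.10, 0.53, 0.79 and 0.71 in C5aR-/- TAM 2 and of -1.44, -0.49, -0.62 and -1.47 in C5aR-/- TAM 3. Junb stood above all WT libraries in both. The group differences of these 4 partners in limma were 0.09, 0.12, 0.25 and -0.08 (adjusted p from 0.851 to 0.967), and each changed sign when single libraries were left out.

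**Figure D4:**
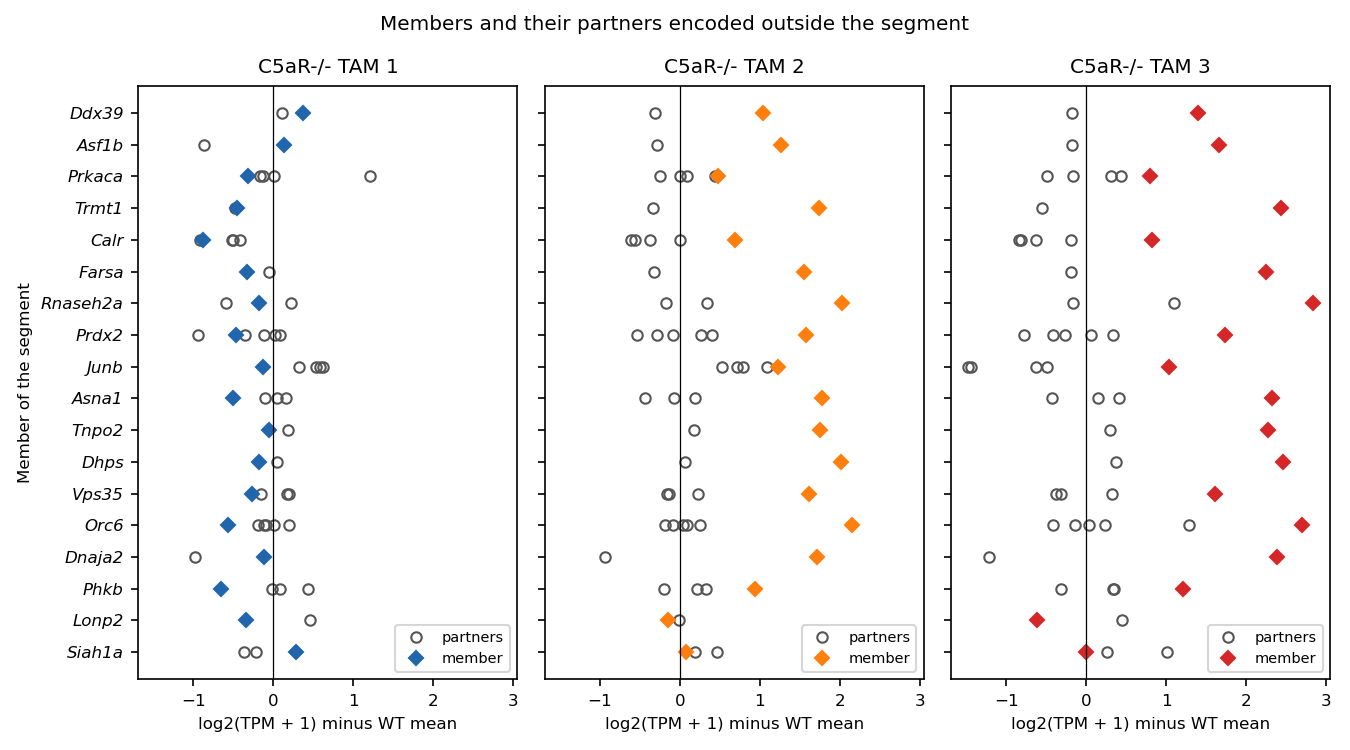
Deviation from the WT mean on the log2 scale (x axis) of 18 members (filled diamonds) and of their tested partners encoded outside the segment (open circles), in C5aR-/- TAM 1, 2 and 3. The partners lie on both sides of 0 in each library, and the members' own values in C5aR-/- TAM 2 and C5aR-/- TAM 3 are those the segment was chosen on.

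Other cell types and states also differed between these libraries, and their part in the members' values was not tested. In sorted bulk RNA, fewer cells of a type and less RNA per cell cannot be told apart. The summed TPM of 12 macrophage markers was 9378, 3800 and 2666 in WT TAMs and 9382, 5344 and 2663 in C5aR-/- TAMs, so markers of the labelled cell type were detected in all libraries at unequal levels. Epithelial or ovarian tumor markers, 10 genes, summed to between 2029 and 2227 in WT and between 1818 and 2354 in C5aR-/- TAMs, but single genes of this list parted the groups in both directions. Krt8 was higher, at 455 to 465 TPM in WT and 624 to 758 TPM in C5aR-/- TAMs, and so was Cldn3, at 38.5 to 48.6 and 102 to 138. Muc16 was lower, at 142 to 148 in WT and 10.2 to 39.2 in C5aR-/- TAMs, and Pax8 was near 0 in all, at most 0.27. The 6 mesothelial markers summed to 1810, 1864 and 2356 in WT TAMs and 1711, 1901 and 1144 in C5aR-/- TAMs, with the largest share from Krt19, which is in the epithelial list too. Of these, Msln was higher in all C5aR-/- libraries (135 to 180 TPM in WT and 268 to 288), and Upk3b, Upk1b and Lrrn4 were lower in all of them (for Lrrn4, 38.0 to 48.1 and 5.59 to 14.3). Proliferation markers were higher along with the members in C5aR-/- TAM 2 and C5aR-/- TAM 3. Of these, 11 of 12 were above all WT libraries in both, beside 19.3% of all protein-coding genes. Their median deviations were 0.17, 0.39 and 0.61 in C5aR-/- TAM 1, 2 and 3. For the members from Zswim4 to Phkb they were -0.30, 1.62 and 2.23, so the 2 sets differed in sign in C5aR-/- TAM 1. Of 48 clustered histone genes 33 were above all WT libraries in both, with medians of 0.50, 0.99 and 0.96. Neutrophil markers went the other way, with 5 of 5 below all WT libraries in both, and so did 5 of 6 mast cell markers. The other mast cell marker, Kit, was higher in all C5aR-/- libraries, at 28.92 to 33.06 TPM in WT and 54.65 to 85.38 TPM in C5aR-/- TAMs. Erythroid markers were highest in C5aR-/- TAM 1, with a summed TPM of 26560 where the other 5 libraries had 336 to 7263. Lists for fibroblasts and for endothelial, T, B, NK and dendritic cells were also made. B cell markers had median deviations of 0.71, -0.86 and -2.87 in C5aR-/- TAM 1, 2 and 3, and fibroblast markers -1.78, -0.30 and 0.40. Fibroblast genes were mixed. Col1a1 had 3.52, 7.13 and 10.8 TPM in WT and 1.21, 43.3 and 236 in C5aR-/- TAMs, and Col1a2 4.50, 10.3 and 23.6 and 1.75, 2.31 and 2.46.

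Genes of the interval that are not members fill in its map. Of the 19 protein-coding genes under the filter, 3 were listed at 0 in all libraries. Just under it, with a TPM of 1 in 2 libraries, were 4 genes. They include Mast1, a kinase gene, with a TPM of 0.16, 0.15 and 0.45 in WT and 0.45, 1.97 and 3.55 in C5aR-/- TAMs, and 4930432K21Rik, with 0.46, 0.52 and 0.07 in WT and 0.60, 4.06 and 5.03 in C5aR-/- TAMs. The deviations of Mast1 and 4930432K21Rik were at least 1 in both C5aR-/- TAM 2 and C5aR-/- TAM 3. Rtbdn had 0.95 and 1.35, and Podnl1 had -0.73 and -0.50. Abcc12, just inside the filter, had -0.15 and -0.09. Of 59 other annotated genes in the table, 40 were listed at 0 in all libraries and 4 passed the filter. Gm26532, a lincRNA at chr8:84208920-84209609, stood at 34.1, 14.7 and 13.9 TPM in WT TAMs and at 37.9, 69.9 and 41.9 TPM in C5aR-/- TAMs, without overlap. Gm37352 had 3.89, 1.59 and 3.23 in WT and 6.43, 11.1 and 15.2 in C5aR-/- TAMs. Gm42031, a lincRNA between Zfp791 and Vps35, and the pseudogene Rps13-ps1 beyond Abcc12 overlapped between the groups.

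Gm26532 begins within the last 2 bases of the Mir24-2 hairpin, beside the miR-23a, miR-27a and miR-24-2 cluster that lies shortly before Zswim4. All 13 miRNA genes of the interval in the table were listed at 0, in libraries of poly(A) RNA that are not made to capture mature miRNAs. The mature sequences of 3 of them in RefSeq (GRCm38.p6, plus strand) are printed because they are the regulatory RNAs encoded at the edge of the raised stretch, with the seed, bases 2 to 8, in capitals. They lie at chr8:84208563-84208583, chr8:84208727-84208747 and chr8:84208875-84208896 in the order given, and no 2 of them share a seed.
mmu-miR-23a-3p: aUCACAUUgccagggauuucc
mmu-miR-27a-3p: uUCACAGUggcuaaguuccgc
mmu-miR-24-3p: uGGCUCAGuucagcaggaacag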

How the data were processed

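RNA-seq of sorted TAMs was analysed from 6 libraries (3 WT and 3 C5aR-/-), which the sample labels put into groups. The authors trimmed reads with fastp, aligned them with HISAT2 to mm10 and estimated levels with StringTie, for which the methods name FPKM as the unit. The table they deposited holds TPM per gene. The submitters' processing notes also list RSEM and DESeq2. Which tool made the TPM values, and the tool versions, are not given in the sources used here. TPM sums to the same total in each library and keeps no depth, so neither depth nor counting error is known.

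Gene IDs were matched to GENCODE M21 (52073 of 56980 rows). Levels were taken as log2(TPM + 1), which understates differences of low genes, for genes that reached a TPM of 1 in 3 or more libraries. limma 3.58.1 in R 4.3.3 (lmFit, eBayes with trend, Benjamini-Hochberg over 14776 genes) was used for partner genes. The count tools named in the study's methods need reads and were not run. The limma step was tested on simulated data. Other steps ran in Python 3.11.15 (pandas 2.3.3, numpy 2.4.6).

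The members, the stretches, role groups, partner list and marker lists were chosen with earlier results of these data known. Members were named by role group, by position at the ends of stretches, by the 5 highest and 5 lowest mean deviations in C5aR-/- TAM 2 and 3, and if below the WT mean in either. Which partners are named was chosen after their values were seen. The alternatives tried were other scalings (quantile or median-of-ratios), 0.1 as the pseudocount, a filter at a TPM of 5 or none, a block by replicate number, eBayes without trend, and each library left out in turn. Group means that the authors put in the same deposited table were not used. One member and 1 flanking gene are counted in the totals but are not reported here by name and are not drawn.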

Additional observations from a re-analysis of the deposited data

How the results depend on the processing

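The count of 37 members at least 1 above the WT mean in both C5aR-/- TAM 2 and C5aR-/- TAM 3 stayed within 1.5 times under each alternative run. The other summaries kept their sign except where named. With no filter, which adds genes of low TPM, the median deviation was -0.21, 1.11 and 1.46 in C5aR-/- TAM 1, 2 and 3, and the median group difference was 0.83 (0.99 as reported). With a pseudocount of 0.1, C5aR-/- TAM 3 was at 1.79 and the group difference at 1.06. Median-of-ratios scaling gave -0.20 in C5aR-/- TAM 1, 1.78 in C5aR-/- TAM 3 and a group difference of 1.04, and quantile normalization gave a group difference of 1.05.

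Of the single members, 679 values moved by less than the spread between the WT libraries and 29 moved by more. Of these 708 values, 6 changed sign, all in C5aR-/- TAM 3 and of 3 members within 0.128 of the WT mean, Il27ra, Abcc12 and Siah1a. No member at least 1 from the WT mean did, 0 in all.

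With 1 WT library left out, the median deviation in C5aR-/- TAM 3 was from 1.69 to 1.76. With 1 library of either group left out, the median group difference was from 0.59 (without C5aR-/- TAM 3) to 1.53 (without C5aR-/- TAM 1), so it rests on which C5aR-/- libraries are taken.

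The median log2 difference of the partners, -0.06 as reported, was -0.014 when scaled by median of ratios and -0.023 after quantile normalization. It was from -0.13 to 0.00715 with 1 library left out, above 0 only without C5aR-/- TAM 3 (0.00715). The count of partners past an unadjusted p under 0.05 and fold 2 was 0 with median-of-ratios scaling and from 0 to 1 with 1 library left out, 0 without WT TAM 3 and without C5aR-/- TAM 3. The adjusted count was 0 under each alternative. Of the 18 named partners, 12 kept their direction under each alternative run and 6 did not, in 11 of 233 values, all with 1 library left out. Their ranges were -0.24 to 0.0093 for Vps26a and -0.26 to 0.032 for Vps26b (above 0 only without C5aR-/- TAM 3), -0.41 to 0.86 for Jun, -0.084 to 0.42 for Jund, -0.11 to 0.69 for Fos and -0.47 to 0.62 for Fosb. Leaving out either library numbered 2 put Jun, Jund and Fos below 0, as did C5aR-/- TAM 1 for Jun. Fosb was above 0 once WT TAM 1 or C5aR-/- TAM 3 was removed.

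Replicate numbers were not taken to pair the libraries, as deviations of same-numbered libraries correlated at 0.19, -0.01 and 0.27 across genes. With the replicate block, the median group difference of the members was 0.99, 0 partners passed the adjusted threshold, 1 passed the unadjusted one, and the partner median was -0.06.

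Depth is unknown, so the precision of members with low TPM cannot be given. The causes of the shifts under other settings were not tested.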
